A study of Mus musculus with 4 samples.

Results

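The ADAMTS proteases examined here are 10 genes chosen by name from an amplicon table of mouse messenger RNA: Adamts1, Adamts2, Adamts4, Adamts5, Adamts7, Adamts8, Adamts9, Adamts10, Adamts12 and Adamts15. All 10 had an amplicon among the 23930 of the table, and 9 were expressed highly enough to be tested. The cells were primary progenitor cells from the subcutaneous tissue of C57BL/6 mice with a floxed allele of Gnas, the gene for the G protein subunit that switches on adenylyl cyclase. Control cells received an adenovirus with green fluorescent protein (Ad-GFP, genotype wild type), and mutant cells received an adenovirus with Cre recombinase (Ad-Cre, genotype Gnas-/-). Both groups carry the floxed allele, both were infected in culture, and both were then kept for 7 days in osteogenic medium. There were 2 control and 2 mutant libraries, each measured with a panel that reads a gene through 1 short amplified target. Neither the age of the mice nor whether replicate libraries stem from different animals or cultures is stated in the labels. A p-value here therefore reflects only how far these 4 libraries scatter. What that scatter stands for is not stated, and the 2 controls differed in Xist, an RNA of the inactive X chromosome (165 and 0 RPM). The share of cells in which Cre acted is not given either, and the virus differs between the groups, so an effect of the virus and the loss of Gnas cannot be told apart.

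ADAMTS proteins (a disintegrin and metalloproteinase with thrombospondin motifs) are secreted zinc proteases of the extracellular matrix. They are made as proenzymes, lose their prodomain to furin-type convertases, and bind matrix through their thrombospondin repeats and spacer. One branch cleaves large hyaluronan-binding proteoglycans such as aggrecan and versican, another trims the N-propeptides of fibrillar procollagens, another cleaves cartilage oligomeric matrix protein (COMP), and another acts around fibrillin microfibrils. In skeletal and dermal connective tissue they are known for cartilage breakdown in arthritis and for a skin fragility syndrome caused by loss of procollagen trimming.

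The upstream sequences of Adamts1, the member that rose past the test's threshold, and of Adamts2, the member with the lowest log2 fold change, are shown because these genes had the highest and the lowest fold change of the family members tested. They come from RefSeq's annotation of GRCm38.p6, which had an entry for 4 of the 10 genes (also Adamts9 and Adamts12), and cover the 250 bases before the annotated start, read 5′ to 3′ on the gene's strand. Capitals mark TGACG (the short form of the cyclic AMP response element), GGGCGG (the GC box) and TATAAA (the TATA box) on either strand. Adamts1 is at chr16:85803114-85803363 on the minus strand and Adamts2 at chr11:50601835-50602084 on the plus strand.
Adamts1: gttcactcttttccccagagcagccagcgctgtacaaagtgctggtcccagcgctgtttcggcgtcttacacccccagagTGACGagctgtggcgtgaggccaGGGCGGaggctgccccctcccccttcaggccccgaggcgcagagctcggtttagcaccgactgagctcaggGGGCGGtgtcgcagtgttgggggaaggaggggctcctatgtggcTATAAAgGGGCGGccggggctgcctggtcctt
Adamts2: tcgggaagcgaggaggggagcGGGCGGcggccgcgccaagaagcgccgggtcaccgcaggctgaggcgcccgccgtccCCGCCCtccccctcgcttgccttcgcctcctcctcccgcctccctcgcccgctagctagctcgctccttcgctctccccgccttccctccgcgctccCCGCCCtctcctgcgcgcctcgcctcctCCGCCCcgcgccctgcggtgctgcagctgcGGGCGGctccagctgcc

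The Adamts1 window held 1 TGACG, whose first base lies 170 bases before the start, 3 GC boxes and 1 TATAAA at 32 to 27 bases before the start. The Adamts2 window held 5 GC boxes and neither of the other marked motifs. Among 32851 windows of the same length, TGACG was present in 17.8%, GGGCGG in 32.7% and TATAAA in 12.4%, in either orientation. The palindrome TGACGTCA (1.55% of windows; it contains TGACG) and the GLI site GACCACCCA (0.225% of windows), searched on both strands, had no match in either sequence. The windows of Adamts1 and Adamts2 were 65.6% and 78% G or C, against a median of 52.4% over all windows. The windows of Adamts9 and Adamts12, not shown, also held 1 TGACG each, and neither gene passed the threshold. These matches are letters in a window and not measured binding sites.

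The libraries held 13483518 to 18455811 reads. Values are reads scaled to a fixed library total (RPM), so 1 read is worth 0.0542 to 0.0742 RPM. No row was named Gnas, so the targeted gene was not analysed here. The 2 controls differed from each other by over 4-fold on the log2(RPM + 1) scale in 507 of 11638 tested genes, against 11 between the mutants. The libraries also differed in sex-linked RNA: Xist, of the inactive X chromosome, was at 165 and 0 RPM in the controls against 395 and 419 in the mutants. The Y-linked gene Ddx3y was at 61.4 and 124 RPM in the controls against 26.9 and 12.5 in the mutants. The sex make-up of the cells thus differed with the groups, and its part in the ADAMTS results was not tested. Of 10 measured stromal markers 9 were tested. Pdgfra, a receptor of mesenchymal progenitors, stood at 92.1 to 128 RPM over the 4 libraries, and the surface protein gene Thy1 at 2060 RPM in each control against 3982 and 3250 in the mutants (unadjusted p = 0.0488, limma adjusted p = 0.278). Of the 9 stromal markers 6 had both mutants above both controls and 1 had both below (30.6% and 21.1% of all tested genes). Their median was 0.80 on the log2 scale, and their part in the ADAMTS results was not tested. The 1 below was Dcn, at 525 and 760 RPM in controls 1 and 2 against 471 and 316 in the mutants (log2 fold change -0.71, limma adjusted p = 0.332). Dpp4 stayed at or below 1.19 RPM. Cd34 stood at 0.054 and 7.19 RPM in controls 1 and 2 against 8.42 and 12.6 in the mutants. The summed level of 13 macrophage markers was 50.8 RPM in control 1 but 981 in control 2, against 30.2 and 16.9 in mutants 1 and 2. Most of the sum in control 2 came from 1 of these genes, Lyz2 (822 RPM, against 33.9 in control 1). The macrophage gene Adgre1 was at 0 in every library but control 2 (1.71 RPM). The 7 endothelial markers summed to 10.3 and 85.6 RPM in controls 1 and 2 and to 18.3 and 36.7 in mutants 1 and 2, while 6 keratinocyte and 5 lymphocyte markers stayed at or below 0.519 RPM each. The 6 skeletal muscle markers summed to 42.6 to 115 RPM, nearly all of it from Acta1 and Des, with Myod1, Ckm and Pax7 at 0.

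In the mutant libraries Adamts1 rose 4.92-fold, and it was the only one of the 9 tested ADAMTS genes past the threshold (limma, adjusted p below 0.05). None fell; at an unadjusted p below 0.05 limma gave 3 higher and 1 lower (11.9% and 6.01% of all tested genes), edgeR called 1 higher and 0 lower (0.567% and 0.232%), and DESeq2 called 3 higher and 2 lower (5.14% and 4.24%). The transcript of the procollagen-trimming enzyme Adamts2 and that of Adamts15 stood lower in both mutants than in both controls, and those of Adamts5, Adamts10 and Adamts12 stood higher, without passing the test. Adamts4, Adamts7 and Adamts9 overlapped between the groups, and Adamts8 was near 0. Over all 11638 tested genes 2.3% passed the threshold, 1.73% higher and 0.576% lower in the mutants. Groups that do not overlap, found in 6 of the 9 genes (4 higher, 2 lower), occurred in 51.8% of all tested genes (30.6% higher, 21.1% lower), so nothing is read from that count. The median log2 fold change of the 9 was 0.28, against 0.08 over all tested genes. As the RNA is from bulk cultures, fewer cells of a type and less RNA per cell cannot be told apart.

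**Figure D1:**
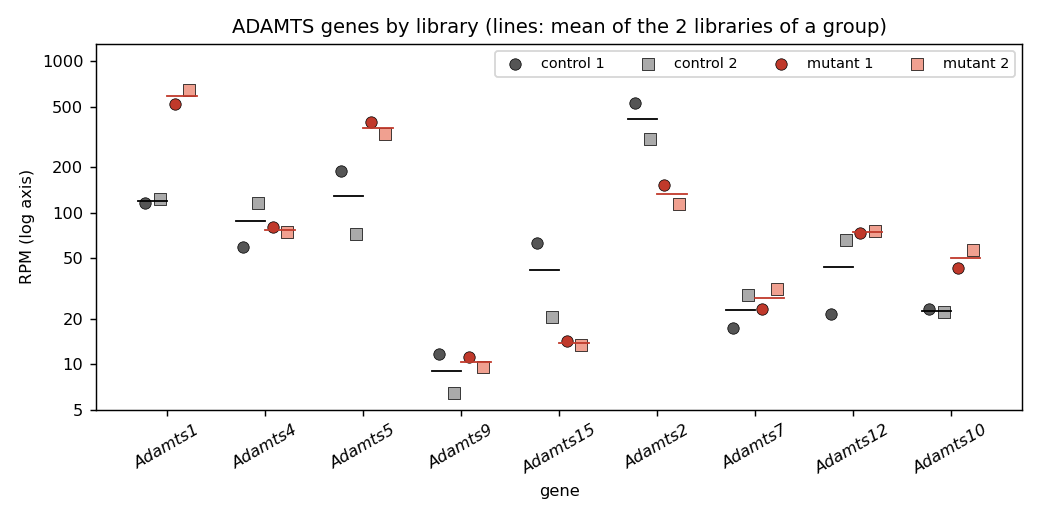
RPM (log axis) of the 9 tested ADAMTS genes in each library, with grey symbols for the 2 controls, red symbols for the 2 mutants and lines for the mean of each group. Both mutants lie far above both controls for Adamts1 (524.6 and 649 against 116 and 123 RPM), while Adamts4 and Adamts9 overlap. Heights of different genes are not comparable, since amplicons differ in how well they amplify.

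The proteoglycan-cleaving branch has 6 of the 10 genes. Adamts1, which encodes a protease of versican and aggrecan that is also known from ovulation and limits vessel growth, was at 116 and 123 RPM in controls 1 and 2, and at 524.6 and 649 RPM in mutants 1 and 2. The controls lay close together and both mutants lay above them. The means were 119 ± 5.05 and 587 ± 87.8 RPM (SD, n = 2 libraries in each group throughout). The log2 fold change was 2.28 (SE 0.22, limma adjusted p = 0.0219; 95% interval 1.73 to 2.83). The call rested on having both mutants. Without mutant 1 the fold change was 2.43 (limma adjusted p = 0.475) and without mutant 2 it was 2.13 (limma adjusted p = 0.532), and in each case 0 genes passed in the whole table. Over the 15 alternatives the adjusted p of Adamts1 ran from 1.78e-12 to 0.532. At an unadjusted p below 0.05 limma still gave 805 genes without mutant 1 and 777 without mutant 2, and with all 4 libraries edgeR kept Adamts1 (adjusted p = 0.0454) as did DESeq2 (adjusted p = 1.78e-12).

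Adamts5 encodes the main aggrecan-cleaving enzyme of mouse cartilage, and its gene lies beside Adamts1. In GENCODE's annotation of GRCm38, Adamts1 occupies chromosome 16 at 85793827 to 85803113 and Adamts5 at 85856173 to 85901828, both on the minus strand and 53.1 kb apart. Where the amplicons lie is not given in the sources used here. Adamts5 levels were 187 and 72.0 RPM in controls 1 and 2, and 396 and 332 RPM in mutants 1 and 2. Both mutants exceeded both controls, but the controls themselves differed 2.6-fold, and the log2 fold change of 1.63 (SE 0.47) had a limma adjusted p of 0.175. It was 2.32 without control 1 and 0.95 without control 2. DESeq2 gave Adamts5 an adjusted p of 0.0297 and edgeR an adjusted p of 0.225.

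Adamts15, which encodes another aggrecan- and versican-cleaving protease, was at 62.8 and 20.5 RPM in controls 1 and 2, and at 14.1 and 13.4 RPM in mutants 1 and 2. The mutants were nearly equal and lay below both controls, which differed 3.07-fold. The means were 41.6 ± 29.9 and 13.8 ± 0.526 RPM, and the log2 fold change was -1.33 (SE 0.54, limma adjusted p = 0.296; 0.0403 in DESeq2). Its size depended on which controls were kept: the value was -0.54 without control 1 and -2.11 without control 2. In edgeR its adjusted p was 0.225. Its gene lies 20.1 kb from Adamts8 on chromosome 9. Adamts8, which encodes an aggrecanase known from lung and heart, had 8 and 0 reads in controls 1 and 2, and 20 and 0 reads in mutants 1 and 2. These are 0.433 RPM in control 1 and 1.15 RPM in mutant 1. A count of 0 allows up to 0.222 RPM in control 2 and 0.202 RPM in mutant 2. It was seen in 1 library of each group and was too low to be tested.

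Adamts4, the aggrecanase known to respond to inflammatory cytokines, was at 59.2 and 117 RPM in controls 1 and 2, and at 80.1 and 74.4 RPM in mutants 1 and 2. The mutants lay between the controls, and the log2 fold change was -0.11 (SE 0.36, limma adjusted p = 0.908; 95% interval -1.02 to 0.81). It was -0.59 without control 1 and 0.38 without control 2. The higher control is the library with 981 RPM of macrophage markers, whose part in this was not tested. Adamts9, which encodes a widely expressed versican-cleaving protease, was at 11.6 and 6.45 RPM in controls 1 and 2, and at 11.2 and 9.63 RPM in mutants 1 and 2. The groups overlapped, with a log2 fold change of 0.23 (SE 0.38, limma adjusted p = 0.796; 95% interval -0.73 to 1.19), which was -0.15 without control 2. It rested on 87 to 215 reads per library.

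Adamts2 encodes the main procollagen N-propeptidase of skin. Its gene is on chromosome 11 at 50602084 to 50807573 (plus strand). Its level was 528 and 309 RPM in controls 1 and 2, and 153 and 114 RPM in mutants 1 and 2. Both mutants lay below both controls. The means were 418 ± 155 and 133 ± 27.5 RPM, a 3.14-fold lower mean in the mutants. The log2 fold change of -1.61 (SE 0.33; 95% interval -2.45 to -0.76) missed the threshold over all genes (limma adjusted p = 0.0941). It was -1.22 without control 1 and -1.99 without control 2. Settings in which Adamts2 passed include DESeq2 on whole reads (adjusted p = 7.9e-05), while edgeR did not call it (adjusted p = 0.0986).

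The COMP-cleaving pair, Adamts7 and Adamts12, did not pass. Adamts12 levels were 21.3 and 66.2 RPM in controls 1 and 2, and 73.4 and 75.7 RPM in mutants 1 and 2. Control 1 stood apart from the other libraries: the log2 fold change of 0.96 (SE 0.53, limma adjusted p = 0.414) was 0.17 without control 1 and 1.76 without control 2. Adamts7 levels were 17.2 and 28.5 RPM in controls 1 and 2, and 23.3 and 31.6 RPM in mutants 1 and 2. Its groups overlapped, with a log2 fold change of 0.28 (SE 0.35, limma adjusted p = 0.726; 95% interval -0.60 to 1.16) that was -0.07 without control 1. For Adamts5, Adamts12 and Adamts15, whose controls differed by over 2-fold, the part of the macrophage and endothelial RNA of control 2 was not tested.

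Adamts10 encodes a fibrillin-binding member whose loss causes a human syndrome of short stature and lens dislocation. Its level was 23.2 and 22.0 RPM in controls 1 and 2, and 43.2 and 56.7 RPM in mutants 1 and 2. The controls were nearly equal and both mutants were higher, with a 2.21-fold ratio of means and a log2 fold change of 1.10 (SE 0.25, limma adjusted p = 0.115; 95% interval 0.45 to 1.74). The log2 fold change was 1.13 without control 1 and 1.06 without control 2. Adamts10 passed in DESeq2 (adjusted p = 0.0233) but not in edgeR (adjusted p = 0.133). Of the members that did not pass, Adamts10 was the least dependent on single libraries by the width of its leave-one-out range, 0.91 to 1.29.

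**Figure D2:**
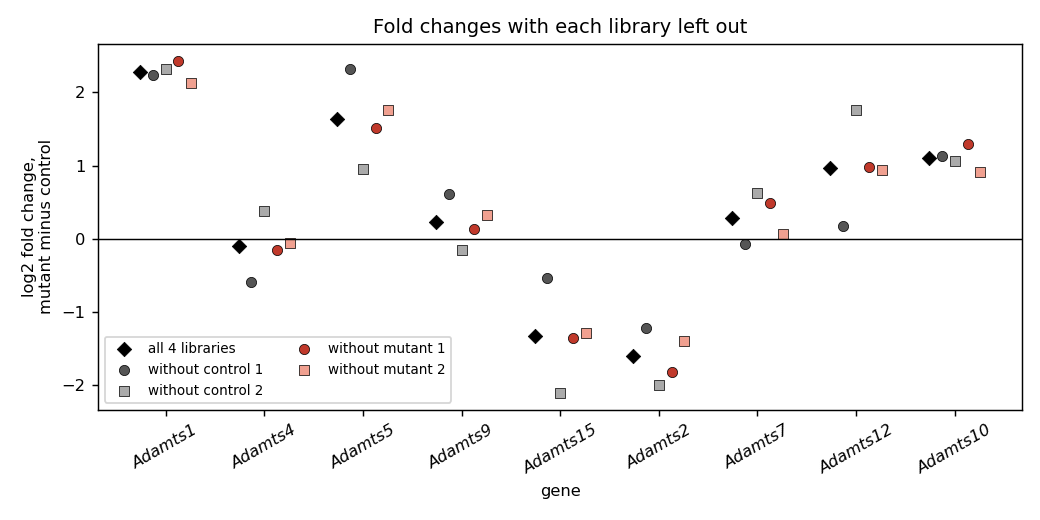
Log2 fold change (mutant minus control) of the 9 tested ADAMTS genes with all 4 libraries (diamonds) and with each library left out. Adamts1 and Adamts10 keep similar values (2.13 to 2.43 and 0.91 to 1.29), whereas Adamts5, Adamts12 and Adamts15 move with the control that is left out, and Adamts4, Adamts7 and Adamts9 cross 0.

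Relatives outside the 10 genes were counted for comparison. Of 9 other ADAMTS genes 4 were tested, of which limma called 1 higher, 0 lower and 3 not past the threshold (1.73% of all tested genes were called higher). At an unadjusted p below 0.05 limma gave 1 higher and 1 lower (11.9% and 6.01% of all tested genes). Of the 4, edgeR called 0, and DESeq2 called 1 higher and 1 lower, the latter Adamts3 (5.14% and 4.24% of all tested genes). Adamts18, which encodes a member tied to eye and organ branching development, had no read in either control and stood at 6.76 and 13.3 RPM in the mutants. This is at least 104-fold higher when the controls are set to 3 reads over the group (limma adjusted p = 0.0345). As it was at 0 in the controls, it passed the filter on low values only through the mutants and had to differ. Its call ended with a pseudocount of 5 (limma adjusted p = 0.0528), with no filter (0.0781), in edgeR (0.0567) and without either mutant (adjusted p from 2.14e-07 to 0.532 over the 15 alternatives). Adamts3, a procollagen N-propeptidase like Adamts2, stood at 3.85 and 3.12 RPM in controls 1 and 2 against 0.745 and 0.337 in the mutants (log2 fold change -1.55, limma adjusted p = 0.118). It passed the filter only through the controls, and was called in DESeq2 (adjusted p = 0.0317) but not in edgeR (adjusted p = 0.157). Adamts14, the remaining enzyme of that branch, stood at 45.5 and 71.2 against 63.8 and 98.7 RPM (0.47, limma adjusted p = 0.524), so the groups overlapped. Adamts6, the closest relative of Adamts10, stood at 30.2 and 28.9 against 25.6 and 19.2 RPM (-0.40, limma adjusted p = 0.5). The 5 that were not tested stayed at or below 2.63 RPM, with Adamts13 and Adamts19 at 0 in every library.

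ADAMTS-like proteins share the thrombospondin repeats but have no protease domain. Of 7 measured 6 were tested, 0 rose, 0 fell and 6 did not pass in limma, and their median log2 fold change was 0.98 against 0.08 over all tested genes. At an unadjusted p below 0.05 limma gave 3 of the 6 as higher, edgeR called 0 and DESeq2 called 3 higher, where 11.9% of all tested genes were higher at that unadjusted p and 5.14% in DESeq2. Adamtsl2, whose product binds the TGF-beta latency protein LTBP1, stood at 0 and 0.519 RPM in controls 1 and 2 against 5.33 and 6.06 in the mutants (log2 fold change 2.44, limma adjusted p = 0.0515). It passed the filter only through the mutants, and its call depended on the setting. Settings that called it include a pseudocount of 5, no trend and DESeq2, while edgeR did not (adjusted p = 0.209). Adamtsl4, known for lens anchoring, stood at 11.7 and 19.3 against 43.9 and 40.4 RPM (1.43, limma adjusted p = 0.109). Adamtsl1 stood at 46.3 and 26.3 against 79.4 and 95.6 RPM (1.29, limma adjusted p = 0.14), and Adamtsl3 at 11.6 and 7.64 against 16.7 and 14.3 RPM (0.66, limma adjusted p = 0.376). Both mutants stood above both controls in 5 of the 6, and in 30.6% of all tested genes. The 5 include Adamtsl2, which entered the test only through the mutants. For Adamtsl5 the groups overlapped (31.2 and 8.53 against 28.7 and 24.7 RPM). Leaving out a control moved the values of Adamtsl1 (1.69 without control 1, 0.90 without control 2) and Adamtsl4 (1.09 and 1.76). Both genes were past the threshold in DESeq2 and not in edgeR.

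**Figure D3:**
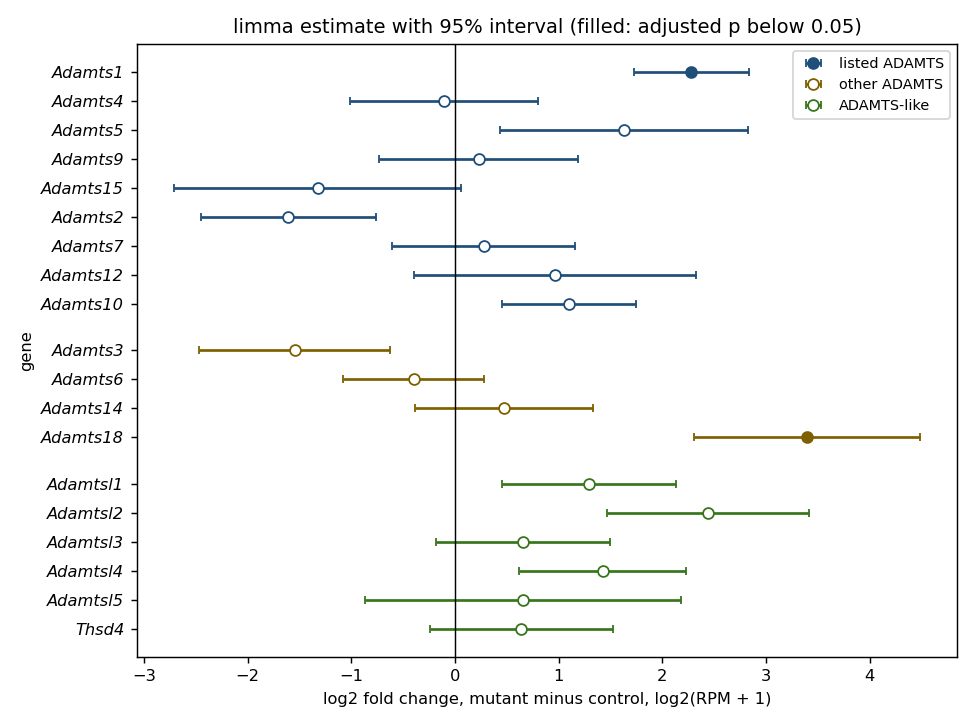
Log2 fold change (mutant minus control, log2(RPM + 1) scale) with its 95% limma interval for the tested ADAMTS genes, other ADAMTS genes and ADAMTS-like genes, filled where the adjusted p is below 0.05. Adamts1 (2.28) and Adamts18 (3.40) are filled. All 6 ADAMTS-like estimates lie above 0 (0.64 to 2.44), but the intervals of Adamtsl3, Adamtsl5 and Thsd4 include 0. Adamts18 and Adamtsl2 (2.44) passed the filter only through the mutants.

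Genes of the substrates were read in 3 lists. Of 12 hyalectan, link protein and hyaluronan genes 5 were tested and none passed in limma, with a median log2 fold change of -1.21. At an unadjusted p below 0.05 limma gave 3 lower (6.01% of all tested genes). Of the 5, edgeR called 0 and DESeq2 called 2 lower (4.24% of all tested genes). These 2 were Has1 and Hapln4, which passed the filter only through the controls. Both also enter the median and the counts of lower genes, so nothing is read from those. Vcan, the versican core protein that Adamts1 cleaves, stood at 106 and 287 RPM in controls 1 and 2 against 173 and 149.7 in the mutants. The mutants thus lay between the controls (limma adjusted p = 0.927), with a log2 fold change of -0.83 without control 1 and 0.60 without control 2. Acan, the aggrecan core protein, was at 0 in every library. The hyaluronan synthase gene Has1 stood at 7.80 and 33.1 RPM in controls 1 and 2 against 0.687 and 0.471 in the mutants (log2 fold change -3.46, limma adjusted p = 0.0855). It passed the filter only through the controls. Its value was -4.44 without control 1 and -2.48 without control 2, and Has1 passed in DESeq2 (adjusted p = 7.2e-08) but not in edgeR (adjusted p = 0.0816). Has2 stood at 25.3 and 62.0 against 19.6 and 13.9 RPM (-1.21, limma adjusted p = 0.28), and the link protein gene Hapln4 at 18.4 and 8.38 against 0.974 and 1.68 RPM (-2.55, limma adjusted p = 0.0725). Only 1 mutant held at least 1 RPM of Hapln4, so it too passed the filter only through the controls. Hapln4 was called in DESeq2 and with quantile scaling (limma adjusted p = 0.0451), and was -2.03 without control 1 and -3.07 without control 2. Has2 was -1.84 without control 1 and -0.58 without control 2. For these 3 of the 5 tested genes both mutants stood below both controls (21.1% of all tested genes). Control 2, with the most macrophage RNA, had the highest Has1 and Has2. The part of macrophages in this was not tested.

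Of 11 genes for fibrillar procollagens and their C-propeptide removal 9 were tested and none passed in limma. At an unadjusted p below 0.05 limma gave 2 higher (11.9% of all tested genes). Of the 9, edgeR called 0 and DESeq2 called 1 higher (5.14% of all tested genes). Col1a1 and Col1a2 encode the chains of type I collagen, whose N-propeptides Adamts2 removes. Col1a1 stood at 5332 and 9875 RPM in controls 1 and 2 against 16666 and 21009 in the mutants (log2 fold change 1.37, limma adjusted p = 0.292). Col1a2 stood at 3843 and 3184 against 7507 and 7512 RPM (1.10, limma adjusted p = 0.226), and Col5a1 at 650 and 1017 against 1540 and 1737 RPM (1.01, limma adjusted p = 0.203). Pcolce, an enhancer of C-propeptide removal, stood at 538 and 539.6 against 680 and 906 RPM (0.54, limma adjusted p = 0.344). In these 4 of the 9 tested genes both mutants stood above both controls (30.6% of all tested genes). The other 5, picked out with their values known, did not share this. Pcolce2, which passed the filter only through the controls, had both mutants below (log2 fold change -0.75), and the groups overlapped for Col3a1 (-0.32), Col5a2 (0.06), Bmp1 (-0.13) and Tll1 (1.64). The median log2 fold change of the list was 0.54. The log2 fold change of Col1a2 was 1.24 without control 1 and 0.97 without control 2. For Col1a1 it was 0.92 and 1.81, and for Col5a1 0.69 and 1.33.

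Of 13 COMP, thrombospondin and microfibril genes 12 were tested. Limma called 2 higher, 0 lower and 10 not past the threshold (1.73% of all tested genes were called higher). At an unadjusted p below 0.05 limma gave 7 higher and 1 lower (11.9% and 6.01% of all tested genes). Of the 12, edgeR called 0, and DESeq2 called 4 higher and 1 lower (5.14% and 4.24% of all tested genes). Limma's calls were the microfibril gene Fbn2 (7.15 and 0.742 RPM in the controls, 128 and 199 in the mutants, log2 fold change 5.41, limma adjusted p = 0.0388) and the elastin gene Eln (1.30 and 0.222 against 30.8 and 76.5 RPM, 4.89, limma adjusted p = 0.0302). Only 1 control held at least 1 RPM of either gene, so both passed the filter only through the mutants. Both calls ended without a filter (limma adjusted p = 0.0711 for Fbn2 and 0.0674 for Eln), in edgeR (0.096 and 0.0578) and without either mutant, and that of Fbn2 also with a pseudocount of 0.5 (0.0517) and with no trend (0.0523), with adjusted p from 3.5e-09 to 0.611 for Fbn2 and from 4.21e-13 to 0.532 for Eln over the 15 alternatives. Comp, the substrate of Adamts7 and Adamts12, stood at 18.7 and 1.71 RPM in controls 1 and 2 against 75.7 and 116 in the mutants (3.69, limma adjusted p = 0.14). Its log2 fold change was 5.13 without control 1 and 2.26 without control 2, and Comp passed in DESeq2 (adjusted p = 0.00404) but not in edgeR (adjusted p = 0.228). Ltbp4, which binds latent TGF-beta to microfibrils, stood at 29.1 and 47.1 against 105 and 104 RPM (1.47, limma adjusted p = 0.0837). The value of Ltbp4 was 1.13 without control 1 and 1.81 without control 2. Both mutants stood above both controls in 9 of the 12 (30.6% of all tested genes) and below them in 2 (21.1%). The median log2 fold change was 1.13 against 0.08 over all tested genes. Fbn2 and Eln, which entered the test only through the mutants, are part of the 9 and of the median, so nothing is read from these. The 2 lower ones, picked out with their values known, were the thrombospondin gene Thbs2 (2536 and 3038 against 1377 and 1389 RPM, unadjusted p = 0.0161, limma adjusted p = 0.172) and the fibronectin gene Fn1 (-0.50, limma adjusted p = 0.534).

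Of 13 genes for inhibition, activation, secretion and clearance of ADAMTS enzymes 11 were tested and none passed in limma. At an unadjusted p below 0.05 limma gave 1 higher and 1 lower (11.9% and 6.01% of all tested genes). Of the 11, edgeR called 0, and DESeq2 called 1 higher and 1 lower (5.14% and 4.24% of all tested genes). Timp3, the main tissue inhibitor of the aggrecan-cleaving enzymes, stood at 1215 and 893 RPM in controls 1 and 2 against 2973 and 2561 in the mutants, a 2.62-fold ratio of means (log2 fold change 1.40, unadjusted p = 0.00534, limma adjusted p = 0.104). Both mutants lay above both controls, and the log2 fold change was 1.63 without control 1 and 1.18 without control 2. Timp3 passed in DESeq2 (adjusted p = 7.9e-05) but not in edgeR (adjusted p = 0.12). Timp1, another inhibitor of matrix metalloproteases, stood at 346 and 1650 against 179 and 187 RPM (-2.04, unadjusted p = 0.0358, limma adjusted p = 0.243), with control 2, the library richest in macrophage RNA, far above the others (the part of macrophages was not tested). Its value was -3.17 without control 1 and -0.91 without control 2, and Timp1 passed in DESeq2 (adjusted p = 0.0029) but not in edgeR (adjusted p = 0.214). Furin, which removes the ADAMTS prodomain, stood at 122 and 135 against 78.2 and 109 RPM (-0.47, limma adjusted p = 0.393). B3glct, which completes a sugar needed for ADAMTS secretion, stood at 21.5 and 6.45 against 25.1 and 20.1 RPM (0.86, limma adjusted p = 0.49). Its log2 fold change was 1.66 without control 1 and 0.06 without control 2. Lrp1, the endocytic receptor that clears several ADAMTS enzymes chosen here after its values were seen, stood at 2007 and 1308 against 1678 and 1485 RPM, with the mutants between the controls (limma adjusted p = 0.966). The median log2 fold change of the list was 0.02.

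**Figure D4:**
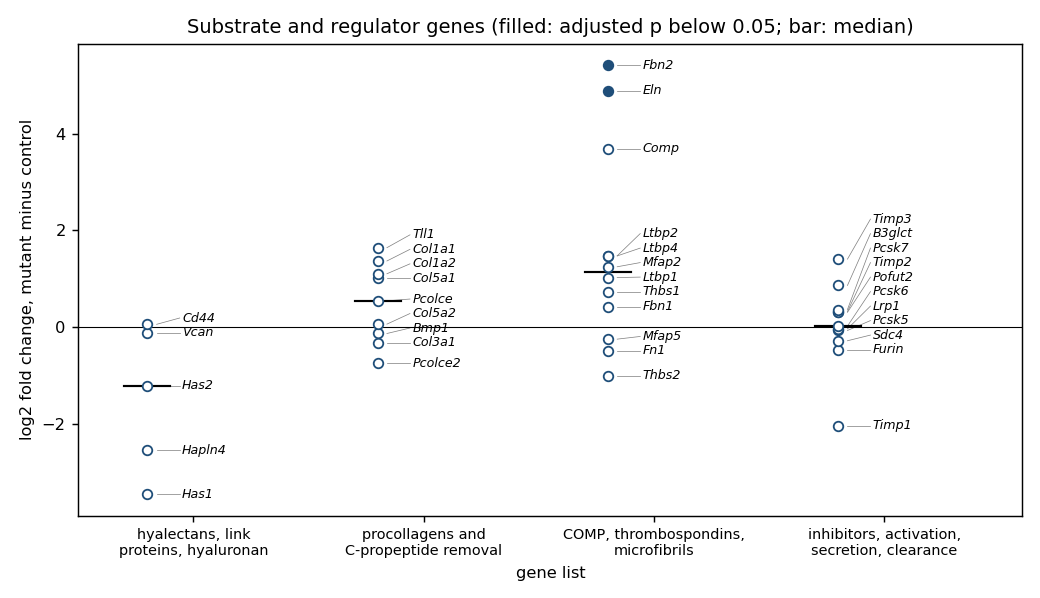
Log2 fold change (mutant minus control) of tested genes of 4 lists tied to ADAMTS function, with a bar at each list's median and filled points where the limma adjusted p is below 0.05. Fbn2 (5.41) and Eln (4.89) are the filled points, the hyaluronan synthases Has1 (-3.46) and Has2 (-1.21) lie below 0, and Timp3 (1.40) and Timp1 (-2.04) lie at opposite ends of the regulators.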

How the data were processed

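The deposited table gives RPM per amplicon, which the authors scaled to the library total. Per the labels' protocols, an Ion AmpliSeq mouse transcriptome panel was used. The aligner, counter and build are not stated in the sources used here. Symbols were read from the amplicon names, since 27 gene cells differ from them. All non-zero values came out as whole reads within 0.1 read (100% in each library), which gave the reads per library. Floors of 3 reads cover counting error only, since amplicon reads carry no molecular identifiers.

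A gene was tested if 2 or more libraries held at least 1 RPM. The test was limma 3.58.1 (R 4.3.3, eBayes with trend) on log2(RPM + 1), two-sided, Benjamini-Hochberg adjusted over all 11638 genes, threshold 0.05. Fold changes on this scale understate the change of low genes. An exact permutation test of 2 against 2 cannot go below p = 0.333 and was not used. Alternatives were other pseudocounts, filters and scalings, a fit without the trend, a replicate block, leaving out each library, and edgeR 4.0.16 and DESeq2 1.42.0 on whole reads. With 1 library left in a group, that library is assumed to vary like the other group. Without a control the spread comes from the 2 mutants, which lay closer together than the controls, so a pass in such a fit is not read as support. The fit was tested on simulated data, where the share of unchanged genes among its calls exceeded the nominal level. An adjusted p near the threshold is therefore less certain than it states. The simulation gave both groups the same spread, whereas here the controls lay further apart than the mutants. Named genes were the 10 members and, of other lists, genes past the threshold plus up to 4 with the smallest p. Members and lists were chosen with earlier results of these data known. Sequences are from RefSeq, positions from GENCODE M21.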

Additional observations from a re-analysis of the deposited data

How the results depend on the processing

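The call of Adamts1 was kept in 13 of 15 alternatives. These include the fits that leave out a control, where a pass is not read as support. The call was lost in the 2 that leave out a mutant library. There the spread came from the controls, which lay further apart than the mutants, so these fits cannot decide about Adamts1. The number of ADAMTS genes past the threshold, 1 with all libraries, ranged from 0 to 6 when a library was left out, was 2 with the replicate block (Adamts2 added) and 5 with DESeq2 (Adamts2, Adamts5, Adamts10 and Adamts15 added). Over all genes, 201 higher and 67 lower calls became 56 and 18 with no filter, 66 and 27 in edgeR, and 598 and 493 in DESeq2. Leaving out a library gave 0 to 1609 higher and 0 to 802 lower calls. With the replicate block 301 were higher and 123 lower, but the labels give only shared numbers: deviations of same-numbered libraries correlated at r = 0.164 across genes, and the pairing was not used. Of 24 named relatives and functional partners 3 passed with all libraries, 0 in edgeR, 0 with no filter and 14 in DESeq2. With the replicate block 5 passed (Adamtsl2 and Has1 added, limma adjusted p = 0.041 and 0.0403). Over all tested genes 2.3% passed with all libraries, and DESeq2 called 5.14% higher and 4.24% lower. The 24 were picked by smallest p in these data, so nothing is read from these counts. Directions turned for 4 named genes when a control was left out: Adamts4 (-0.59 without control 1, 0.38 without control 2), Adamts7 (-0.068 and 0.62), Adamts9 (0.61 and -0.15) and Vcan (-0.83 and 0.60). The cause was not tested. Quantile scaling moved the median log2 fold change of all tested genes from 0.08 to -0.03, and none of the 3 scalings turned a direction of the 9 tested ADAMTS genes. Only 2 libraries per group limit every value.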
